A study of Mus musculus with 2 samples.

Results

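The regions described are 4881 ChIRP-seq peaks of the odd probe set against *Gm19619* that lie in the wide stretches between protein-coding genes. They were chosen from the 13653 odd peaks on the 19 mouse autosomes (14261 in all) by 3 conditions. A peak had to have a pileup under 30, where pileup is the number of extended reads stacked at the summit. It had to share no base with any of the 3453 autosomal even peaks (3637 in all), which makes it odd-only. Its summit had to lie more than 10000 bp from the body of every protein-coding gene of GENCODE vM21. The first and second conditions left 12428 peaks, of which 6159 had their summit inside a protein-coding gene body and 1388 within 10000 bp of one. Those 2 groups served as comparators. Of all 5347 autosomal odd peaks beyond 10000 bp, 255 overlapped an even peak and 211 more reached a pileup of 30 or above, and neither set was included.

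Chromatin isolation by RNA purification (ChIRP) pulls an RNA out of fixed chromatin with short biotinylated DNA oligonucleotides complementary to it, and the DNA that comes along is sequenced. Probes are commonly split into odd and even pools because a site reached through the RNA can be captured by either pool, whereas DNA that a probe binds directly depends on the letters of that probe. Long noncoding RNAs are transcripts without a long open reading frame, many of which stay in the nucleus, and gene deserts are long intervals that hold no protein-coding gene.

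*Gm19619* is a long noncoding RNA of mouse liver. Primary hepatocytes of wild-type C57BL/6 mice, 4 females of 8 weeks whose cells were combined, were crosslinked for 10 min in 3% formaldehyde. The lysate was shared between the odd and the even pool, with 7 probes in each, and every pool gave 1 library. With 1 library per pool there was no replicate, so no test between libraries could be made. Peak lists carry no expression values, and the cell type was not checked against markers. All intervals below are 95% intervals (Wilson for shares, exact Poisson for densities, order statistics for medians) that cover counting error only. Reads kept after removal of duplicates numbered 6972538 in the odd and 7052802 in the even library, 11.4% and 10.7% of those mapped. No control library entered the peak calling, so regions that gather reads in any library were not removed.

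The odd probes are shown first because their letters recur in many of the regions. Each line gives the part of a probe that was found exactly, on the strand opposite to the RNA, in *Gm19619* (RefSeq GRCm38, chromosome 5). Capitals mark the 13 bases whose copies elsewhere in the genome, far from protein-coding genes, most often lay in an odd peak, among stretches with at least 10 such copies.
Probe 1, exon 1, chr5:91283023-91283042: aaGGAGAGTGAAGTGgcagt
Probe 3, exon 4, chr5:91273978-91273997: tgtGCCATGTGAAAGCagag
Probe 5, exon 4, chr5:91273773-91273790: GAAAAGACCCGGActtgg
Probe 7, exon 6, chr5:91258494-91258513: gGGAACTGAGCTGTgagatg
Probe 9, exon 6, chr5:91258311-91258330: ctatgGGTTCTGGACAGCtc
Probe 11, exon 6, chr5:91258104-91258123: tatcttTGAGCTTCGAGACc
Probe 13, exon 6, chr5:91257895-91257914: CAGATGATACGATgtcccaa

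Next come 5 of the 6 places among the 4881 regions that matched a probe over the longest unbroken stretch, 17 bases or more. They are written in the direction of the probe, with the matching run in capitals and 20 bases on either side.
Probe 3, bases 1 to 18, chr6:36106807-36106864, pileup 19: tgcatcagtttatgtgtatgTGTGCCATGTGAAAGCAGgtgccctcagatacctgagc
Probe 7, bases 1 to 17, chr13:75231762-75231818, minus strand, pileup 27: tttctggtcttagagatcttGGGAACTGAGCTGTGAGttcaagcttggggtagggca
Probe 3, bases 3 to 19, chr10:57281371-57281427, minus strand, pileup 20: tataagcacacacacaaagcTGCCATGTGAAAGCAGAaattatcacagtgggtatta
Probe 1, bases 1 to 17, chr5:121101200-121101256, pileup 15: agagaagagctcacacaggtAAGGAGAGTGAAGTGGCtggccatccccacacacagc
Probe 1, bases 4 to 20, chr13:86467757-86467813, pileup 13: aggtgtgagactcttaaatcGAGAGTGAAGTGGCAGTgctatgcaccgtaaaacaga
These 5 runs lay 6.5 to 88 bp from the summit of their peak. The nearest protein-coding gene was 29347 to 420793 bp away.

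A weaker kind of likeness was common too, in which a probe aligned to the region with a mismatch or a base gained or lost. The 5 examples below had no run of 12 bases and the highest pileups among those aligned with a score of 17 (match 1, mismatch −1, gap −1). Capitals mark letters aligned to a letter of the probe, which may be mismatches, and lower case between capitals marks letters with no partner in the probe.
Probe 3, chr10:125565581-125565638, pileup 28: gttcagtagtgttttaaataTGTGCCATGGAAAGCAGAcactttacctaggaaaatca
Probe 1, chr10:124001443-124001500, pileup 27: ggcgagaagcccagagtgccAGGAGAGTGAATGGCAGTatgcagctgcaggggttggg
Probe 7, chr5:134858241-134858301, minus strand, pileup 25: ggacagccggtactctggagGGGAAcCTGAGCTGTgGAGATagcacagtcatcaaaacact
Probe 1, chr7:116887337-116887395, pileup 25: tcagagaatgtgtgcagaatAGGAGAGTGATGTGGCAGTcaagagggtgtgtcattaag
Probe 7, chr8:90604190-90604250, pileup 25: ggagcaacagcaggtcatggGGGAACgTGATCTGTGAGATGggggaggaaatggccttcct

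The regions were low and narrow, which the choice of members fixed in part. The pileup ranged from 5 to 29 with a median of 11 (quartiles 9 and 14). The length ranged from 200 to 1257 bp with a median of 264 bp, and the fold enrichment had a median of 7.91 and a maximum of 19.8. That ratio is the pileup plus 1 over the genome-wide background of 0.5165 reads plus 1, so it understates the ratio without the added 1. At the edge of the pileup limit, 25 regions had a pileup of 29, and 27 peaks that met the other conditions had 30 and were outside. The region closest to a protein-coding gene, chr1:119405346-119405623 near *Inhbb*, lay 10017 bp from it, and the nearest excluded peak lay at 9963 bp. The smallest gap to an even peak was 3 bp (chr17:47216615-47216902, pileup 12, in *Trerf1*), and the smallest overlap among the 197 peaks excluded for it alone was 15 bp.

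Most regions were well beyond the 10000-bp limit. The median distance from the summit to the nearest protein-coding gene was 90185 bp (quartiles 31268 and 252899 bp). In 2327 of 4881 (47.7%, interval 46.3 to 49.1%) the distance exceeded 100000 bp, in 548 (11.2%) it exceeded 500000 bp, and in 162 (3.32%) it exceeded 1 Mb. The definition of a gene mattered little to the count. In the RefSeq annotation, 106 of the regions lay inside a protein-coding gene and 171 inside or within 10000 bp of one, among them the regions in *Trerf1* and *Dcdc5*, which GENCODE vM21 lists as noncoding.

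Over the sequence more than 10000 bp from protein-coding genes, called far sequence here, the 4881 regions gave 4.15 per Mb of known bases (4.03 to 4.27), against 6.22 per Mb (6.06 to 6.38) for odd-only peaks of the same pileup inside protein-coding genes. The density fell with each step away from genes. It was 6.05 per Mb within 10000 bp, 5.13 from 10 to 50 kb, 4.69 from 50 to 100 kb, 3.86 from 100 to 500 kb and 2.71 beyond 500 kb. Places in the genome that share a run of 12 or more bases with an odd probe thinned out as well, though not at every step. Their density was 9.42 per Mb inside genes and 8.58 within 10 kb. In the 4 distance classes beyond 10 kb it was 8.62, 8.52, 7.44 and 5.77 per Mb. Base composition moved in the same direction beyond 10 kb, with 43.1% GC inside genes, 43.7% within 10 kb and 37.5% beyond 500 kb. The part of these changes in the density of peaks was not tested. Among chromosomes, the density ran from 3.56 per Mb on chromosome 12 to 4.98 per Mb on chromosome 19.

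**Figure D1:**
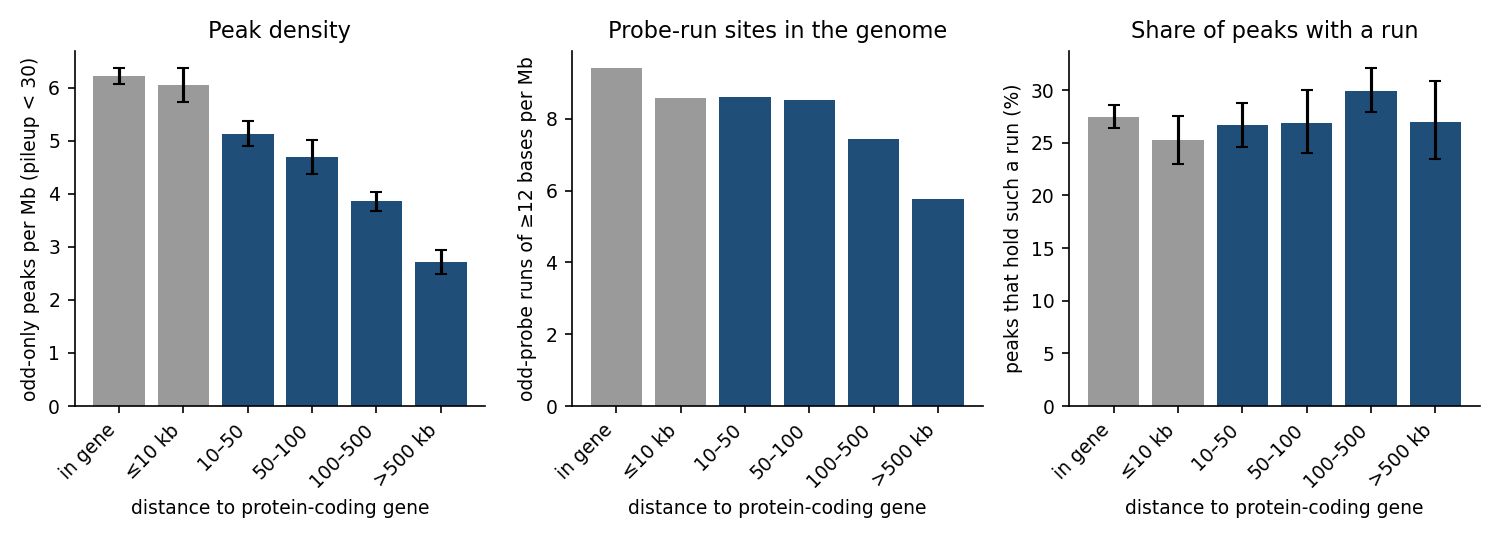
Odd-only peaks with a pileup under 30 per Mb of known sequence (left), genomic sites with an odd-probe run of 12 or more bases per Mb (middle) and the percentage of the peaks that hold such a run (right), by distance from the nearest protein-coding gene. Blue bars hold the 4881 regions, grey bars the comparators inside or within 10 kb of genes, and error bars are 95% intervals. The first quantity decreases at each step, from 6.22 to 2.71 per Mb. The second goes from 9.42 to 5.77 per Mb, with 8.58 within 10 kb and 8.62 from 10 to 50 kb. The share with a run stays between 25.2 and 29.96%.

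At least 12 unbroken bases of an odd probe were found in 1364 of the 4881 regions (27.9%, 26.7 to 29.2%). This was close to the 28.1% of all autosomal odd peaks and to the 27.5% (26.4 to 28.6%) of comparators inside protein-coding genes. Beyond 10 kb the share lay between 26.7 and 29.96% in the 4 distance classes, with overlapping intervals. It depended on the length asked for. With 10 bases it was 55.7%, against 55.3% of all odd peaks, and with 14 bases it was 5.33%, against 5.75%. Runs of the even probes, which were not part of this pool, were found in 8 regions (0.164%, 0.0831 to 0.323%). Within 100 bp of the summit, 22.0% of the regions held an odd-probe run, against 39 of 29396 windows of the same length (0.133%) spaced evenly over the same sequence. The peaks beyond 10000 bp that overlapped an even peak, and so were excluded, stood apart: 14 of 255 (5.49%, 3.30 to 9.003%) held an odd-probe run. The mirror set was 1242 even-only peaks more than 10000 bp from protein-coding genes, with no limit on pileup. Of these, 331 (26.7%, 24.3 to 29.2%) held a run of an even probe. Without a limit on pileup, the share of far odd-only peaks with an odd-probe run was 29.3%.

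The runs sat near the summits. The 1364 regions held 1374 runs, 9 regions had more than 1, and the most in any was 3. Their centres lay a median of 54.5 bp from the summit, 46% of them within 50 bp, where 29.0% of the bases of those regions lie, and 80.3% within 100 bp. The letters of the probe were on the plus strand in 49.1% of runs, so neither strand was preferred in count. Probe 7 gave runs in 529 regions and probe 1 in 374, followed by probe 9 in 222, probe 3 in 176, probe 5 in 38, probe 11 in 26 and probe 13 in 6.

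**Figure D2:**
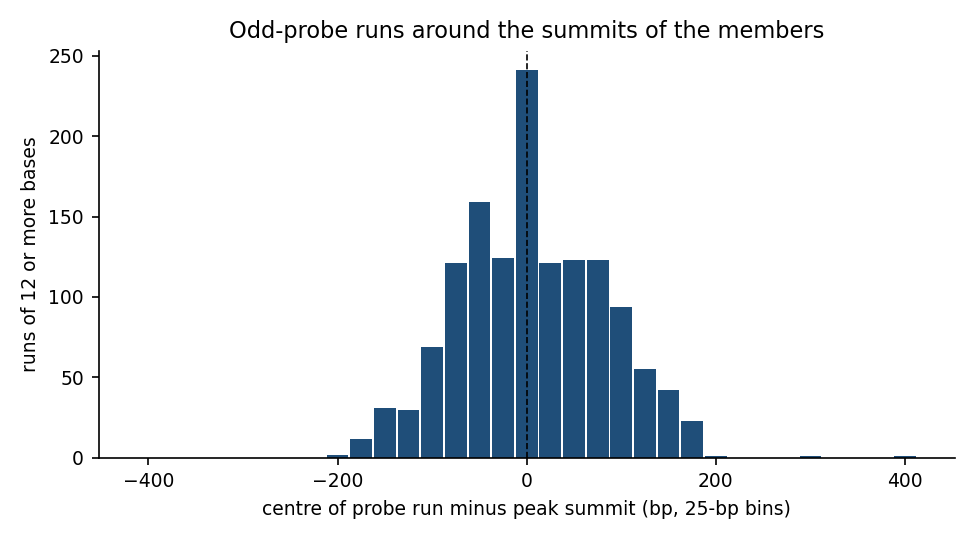
Number of odd-probe runs of 12 or more bases (vertical axis) by the position of their centre relative to the summit of the peak that holds them, in bp and bins of 25 bp. The 1374 runs pile up around 0, with 80.3% within 100 bp of the summit.

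Regions with longer runs were higher. The median pileup was 10 in the 2160 regions whose longest run was under 10 bases, 11 in the 580 with 12 bases, 13 in the 524 with 13 bases, 17 in the 197 with 14 bases and 19 in the 47 with 15 bases. The 63 regions with 15 bases or more had pileups from 7 to 29 with a median of 19, and 8 of them lay in a noncoding gene. Pileup was one of the values that chose the regions, so these medians are a description below the limit of 30. The 211 far, odd-only peaks at or over that limit held a run in 61.6% of cases (54.9 to 67.9%).

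Searching from the genome toward the peaks gave the same picture without using the peak list to find the sites. Outside 10000 bp around *Gm19619*, the far sequence held 8999 sites where an odd probe matched over at least 12 unbroken bases. Of these, 1561 (17.3%, 16.6 to 18.1%) lay in an odd peak and 16 in an even peak. The share rose steeply with length, from 668 of 6854 sites (9.75%) at 12 bases to 565 of 1718 (32.9%, 30.7 to 35.1%) at 13, 225 of 321 (70.1%) at 14, 79 of 82 (96.3%) at 15 and all 24 sites (86.2 to 100%) at 16 or more. For the even probes, whose letters serve as a background, 12 of 7864 far sites (0.153%) lay in an odd peak and 392 in an even peak. By length, the even-probe share in an odd peak was 0.129% at 12 bases and 0.0777% at 13, and 2 of 17 sites (11.8%, 3.29 to 34.3%) of 16 or more bases were covered.

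Sites in or within 10000 bp of protein-coding genes were covered somewhat more often at the middle lengths. There the shares were 11.7% at 12 bases, 42.7% at 13, 77.3% at 14 and 99.1% at 15, and all 31 sites of 16 bases or more lay in an odd peak. The gap was widest at 13 bases, and composition of the surroundings moved with it. Among 13-base sites whose surrounding 200 bp had under 38% GC, 18.1% of far and 29.3% of other sites lay in an odd peak. From 38 to 42% GC the shares were 30.9% and 38.6%, from 42 to 46% they were 39.2% and 43.8%, and at 46% or more they were 41.2% and 47.5%. Far sites thus had the lower share in each of the 4 classes, and the intervals overlapped except under 38% GC.

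**Figure D3:**
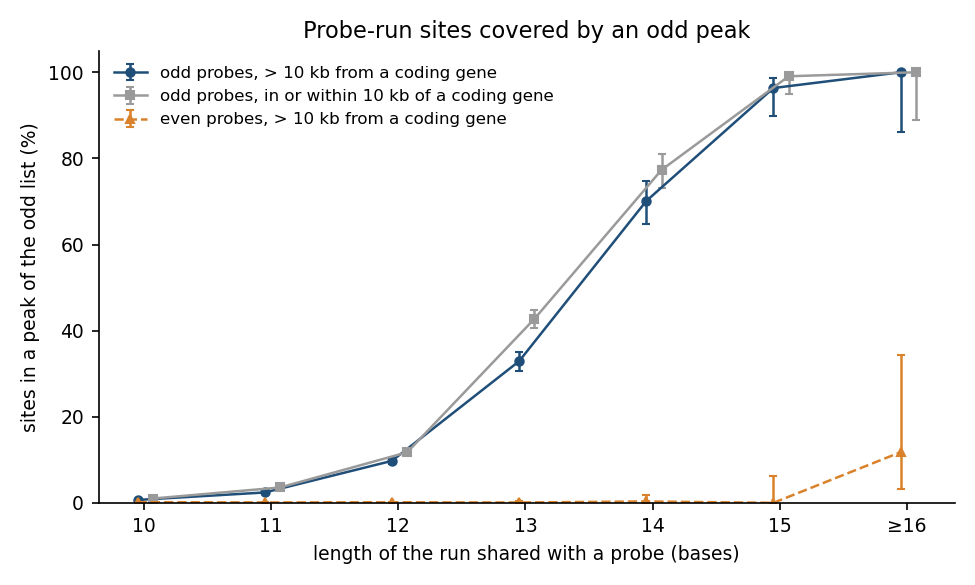
Percentage of genomic sites matching a probe that lie in an odd peak (vertical axis) by the length of the matching run in bases (horizontal axis). Blue shows odd-probe sites more than 10 kb from protein-coding genes, grey the other odd-probe sites and orange the far even-probe sites, each with a 95% interval. The far odd-probe sites go from 9.75% at 12 bases to 96.3% at 15, and even-probe sites total 0.153% over all runs of 12 or more, with 2 of 17 (11.8%) at 16 or more.

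Not only the length but also the letters of a run moved with coverage. Among far sites with exactly 13 matching bases, none of 57 with 4 G or C bases lay in an odd peak, an upper bound of 6.31%. The share was 3.75% with 5, 16.9% with 6, 51.5% with 7 and 90.6% (116 of 128) with 8 such bases, and all 7 sites with 9 were covered. At 14 bases 1 of 20 sites with 5 such bases was covered, and the shares were 36.4% with 6, 81.0% with 7 and 98.7% with 8. Repeat-masked sites, in lower case in the RefSeq genome, were covered less often than others at 13 bases, with 21.4% against 35.6%.

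**Figure D4:**
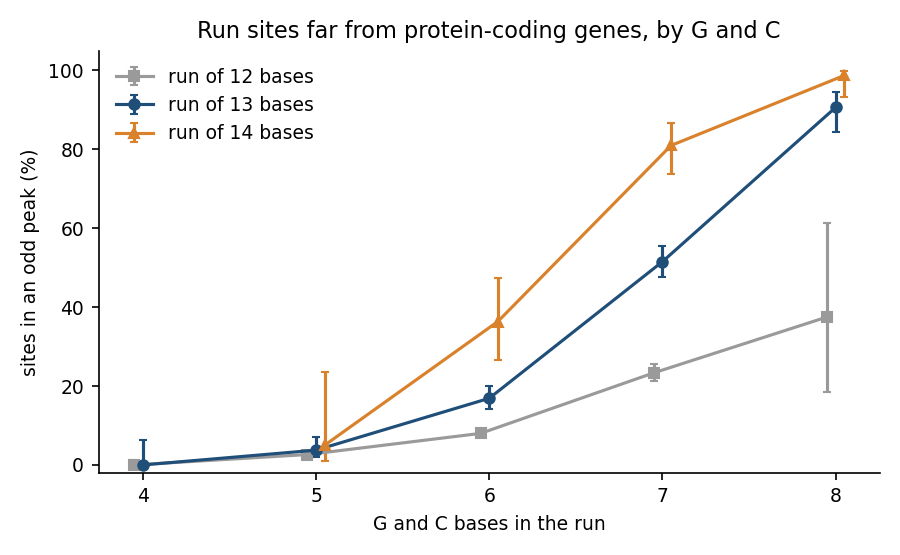
Percentage of odd-probe sites far from protein-coding genes that lie in an odd peak (vertical axis) by the number of G and C bases in the run (horizontal axis), for runs of exactly 12, 13 and 14 bases with 95% intervals. At 13 bases the share goes from 0 of 57 sites with 4 to 90.6% with 8.

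Stretches of the same probe also differed in coverage, and the capitals in the probe lines above mark the most covered ones among those with at least 10 sites. The part of G and C content in these differences was not tested. Stretches with fewer sites could have higher shares, such as bases 6 to 18 of probe 5 with 7 of 7. All 19 far sites matching bases 3 to 15 of probe 1 and nothing longer lay in an odd peak, against 35 of 159 for bases 1 to 13. For probe 3, 19 of 20 sites with bases 4 to 16 were covered and 1 of 84 with bases 7 to 19. For probe 7 the counts were 21 of 22 for bases 2 to 14 and 2 of 24 for bases 7 to 19. Probe 9 gave 13 of 14 for bases 6 to 18 and 1 of 91 for bases 2 to 14. For probe 13, bases 1 to 13 were the only stretch with 10 sites or more, and 2 of 92 were covered. These stretches were picked by their coverage, so the counts are a description. Over all its runs of 12 or more bases, coverage was 28.0% for probe 7, 28.1% for probe 5, 24.4% for probe 1, 13.4% for probe 9, 9.48% for probe 3, 3.22% for probe 11 and 2.38% for probe 13.

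Gapped or mismatched alignment to a probe covered more regions than unbroken runs. An alignment with a score of 13 or more within 100 bp of the summit was found in 2721 of 4881 regions (55.7%, 54.3 to 57.1%), beside 53.4% of all odd peaks and 53.8% of comparators inside genes. In the evenly spaced windows of far sequence the share was 2.22%. For the even probes it was 100 regions (2.05%) against 1.88% of those windows. Among the 3517 regions without a run of 12 bases, 1723 (49.0%, 47.3 to 50.6%) had such an alignment to an odd probe and 68 (1.93%) to an even probe. Probe 1 was the best match in 803 of the 1723, probe 7 in 417, probe 3 in 213 and probe 9 in 209. Where probes tied, the one with the lowest number was taken, here and for the families below, and ties were not counted. Among the 1242 even-only peaks, 350 (28.2%) aligned to an even probe in this way.

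By these 2 measures the regions fell into 1364 with a run, 1723 with an alignment only and 1794 (36.8%, 35.4 to 38.1%) with neither. The last class also differed in height, nearness to even peaks and repeat content. Its median pileup was 10, against 13 with a run and 11 with an alignment only. Peak length enters the classes, because a run had to lie wholly inside its peak. The median length was 226.5 bp with neither, 317 bp with a run and 266 bp with an alignment only. An even peak lay within 10000 bp of 6.47% (5.42 to 7.70%) of the regions with neither, 4.005% (3.18 to 5.04%) of those with an alignment only and 1.83% (1.24 to 2.69%) of those with a run. Of the 48 regions with an even peak within 1000 bp, 39 had neither. These intervals count neighbouring regions as independent. The 3 densest clusters, described below, held 28 regions close to even peaks, nearly all with neither, and the shares by class were not computed without them. Entirely repeat-masked regions made up 7.97% (6.81 to 9.32%) of this class, 0.638% of those with an alignment only and 0.806% of those with a run.
The highest 2 of the class are shown with 121 bases each. They stayed under the limits for a run and an alignment, which does not make them free of probe letters. The best score of the first was 11, with probe 9.
chr1:133934411-133934531, pileup 29, near *Prelp*: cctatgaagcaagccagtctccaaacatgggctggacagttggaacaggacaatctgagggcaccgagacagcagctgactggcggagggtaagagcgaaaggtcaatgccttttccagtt
chr4:105631239-105631359, pileup 28: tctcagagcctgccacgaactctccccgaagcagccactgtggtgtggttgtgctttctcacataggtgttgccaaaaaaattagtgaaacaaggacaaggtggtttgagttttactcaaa

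Over all 4881 regions, 210 (4.30%, 3.77 to 4.91%) had an even peak within 10000 bp, beside 8.15% of all odd peaks, a set that includes those overlapping an even peak, and 4.25% of comparators inside genes. The median distance to the nearest even peak was 277305 bp. Median composition lay between that of the comparator peaks inside genes and that of the evenly spaced far windows. The median GC content of the regions was 44.0%, against 46.5% for comparators inside genes and 40.3% for the evenly spaced far windows. The median repeat-masked share was 19.7%, against 12.5% and 25.4%.

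The 25 regions of highest pileup stood at 29, and 8 of the 10 longest of them held a run. Of these, chr6:141896425-141897030, 10544 bp from *Slco1a1*, a bile acid and organic anion transporter of hepatocytes, held 16 bases of probe 9. Another, chr14:28656338-28656985, lay 129176 bp from *Wnt5a*, a Wnt ligand, in the noncoding gene *Gm35164*. The region near *Prelp*, shown above, was the only one of the 10 with neither a run nor an alignment.

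The 10 regions farthest from genes lay 1910053 to 2282063 bp away with pileups from 6 to 19. They were in the intervals between *Tenm3* and *Aga*, *Pcdh20* and *Pcdh9*, and *Cntnap5b* and *Cdh20*, flanked by genes of adhesion molecules and the amidase gene *Aga*. Of the 10, 3 held a run and 2 more an alignment. The farthest held bases 5 to 17 of probe 9, and the farthest with 15 bases or more held bases 3 to 17 of probe 1, 1745104 bp from a gene.
Farthest, chr8:51125927-51125979, minus strand, pileup 14: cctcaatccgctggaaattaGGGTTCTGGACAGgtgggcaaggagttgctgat
Farthest with 15 bases, chr8:6850374-6850428, minus strand, pileup 23: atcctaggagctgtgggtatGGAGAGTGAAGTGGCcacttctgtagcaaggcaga

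The gene deserts held regions at a lower density. Between protein-coding genes, leaving 10000 bp at each end, there were 8008 gaps, and 2231 of them held at least 1 region. The 241 gaps wider than 1 Mb held 1334 regions, 3.05 per Mb, and 5 of these gaps held none. The 10 widest gaps together held 125 regions in 41.3 Mb, 3.03 per Mb (2.52 to 3.61), and their sites with a run of 12 or more bases were also sparser than in far sequence as a whole, 6.13 against 7.65 per Mb. A run was present in 36 of the 125 (28.8%, 21.6 to 37.3%).

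The widest gap, between *Tenm3* and *Aga* (chr8:48853952-53501726, 4.65 Mb), held 17 regions with a median pileup of 10, of which 5 had a run and 6 an alignment only. *Tenm3* encodes a teneurin adhesion protein and *Aga* a lysosomal amidase. The gap between *Slc39a10*, a zinc transporter, and *Tmeff2* also held 17 and was the densest of the 10 at 4.26 per Mb, with 4 runs among 14 genomic run sites. The gap between *Sel1l* and *Flrt2* was the sparsest at 1.83 per Mb, and each of its 7 regions had a run (4) or an alignment (3). The others were *Pcdh20* to *Pcdh9* with 11 regions, *Celf4* to *Pik3c3* with 13, *Olfm4* to *Pcdh17* with 11, *Cntnap5b* to *Cdh20* with 16, *Dsel* to *Cntnap5a* with 13, *Zeb2* to *Acvr2a* with 11 and *Pcdh7* to *G6pd2* with 9. The Poisson intervals of the sparsest (0.736 to 3.77) and the densest (2.48 to 6.83) of the 10 overlapped.

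A pair of gaps had many regions for their width. Between *C130026I21Rik* and *G530012D18Rik* on chromosome 1, 16 regions lay in 0.185 Mb of known sequence, 86.4 per Mb, and none had a run. Between *Ttll7*, a tubulin polyglutamylase, and *Adgrl2*, a latrophilin receptor, 14 regions lay in 1.81 Mb, 7.73 per Mb, with 1 run and 4 alignments only.

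Neighbouring regions were usually far apart, with a median spacing of 249765 bp, and 274 of 4862 spacings (5.64%) were under 10000 bp. The densest clusters held few matches to a probe. At chr1:85284147-85341913 there were 11 regions among 22 odd and 28 even peaks, at chr4:147408934-147459268 there were 10 among 23 odd and 22 even peaks, and at chr8:71828903-71858552 there were 7 among 8 odd and 8 even peaks. No region of the 3 clusters had a run, 1 in each of the first and second had an alignment only, the median pileups were 7, 8 and 8, and an even peak lay a median of 960, 733 and 461 bp away. Other clusters looked different. At chr2:137393846-137489020, 6 regions with a median pileup of 14 had no even peak among them, and 2 held a run and 3 an alignment only. At chr6:31134201-31225963, in and next to *Lncpint*, 6 regions included 3 with a run and again no even peak.

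Noncoding genes contained more of the regions than their width. The summit lay in an annotated noncoding gene in 736 of 4881 regions (15.1%, 14.1 to 16.1%), while such genes cover 12.4% of the far sequence. Over all odd peaks the share was 10.2%, a lower value in a set whose peaks mostly lie in or near protein-coding genes. The density was 5.04 per Mb (4.68 to 5.42) inside noncoding genes and 4.024 per Mb (3.902 to 4.15) in the rest of the far sequence, intervals that do not overlap. In 77 regions the summit was in an exon and in 659 only in an intron. The class of the gene was lincRNA, a long intergenic noncoding RNA, for 508 regions, antisense for 84 and processed transcript for 62. The probe letters of runs inside noncoding genes were on the gene's strand in 100 of 198 cases.

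The 736 regions were spread over 618 genes, of which 512 held 1, 69 held 2 and 37 held 3 or more. Of a list of 25 known noncoding RNA genes, 24 are annotated on these chromosomes and 6 held a region. These were *Pvt1* with 6, *Sox2ot* and *Mir99ahg* with 2 each, and *Rmst*, *Snhg14* and *Gm19619* with 1 each. No background share is given for the 6. Several others, such as *Gas5*, *Tug1* and *Hottip*, overlap or lie within 10000 bp of a protein-coding gene. There the rule bars all or part of their length. *Snhg11* is typed as protein-coding. *Neat1* and *Malat1*, the abundant nuclear RNAs of many tissues, *H19* and *Meg3*, which are imprinted, and *Mir122*, which encodes the main microRNA of hepatocytes, held the summit of no odd peak. Their lengths run only from 66 bp (*Mir122*) to 30726 bp (*Meg3*), so at 4.15 regions per Mb few could fall in them.

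*Pvt1*, the long RNA gene next to *Myc*, held 6 regions with pileups of 12, 6, 13, 6, 23 and 14 in order along the gene (chr15:62037986-62378096). The third had a run of 12 bases of probe 7, 3 others had an alignment only, and the highest, chr15:62257806-62258386, had neither and an even peak 4064 bp away. *Rmst*, an RNA gene of neural progenitors, held a region of pileup 26 with 15 bases of probe 7, 573649 bp from a protein-coding gene. *Sox2ot*, which overlaps the gene of the stem-cell factor Sox2, held regions of pileup 23 and 16 with runs of 13 and 12 bases. The regions in *Mir99ahg*, a host of microRNAs, had pileups of 7 and 11, and that in *Snhg14*, the transcript of the imprinted Prader-Willi region, had 8. None of these 3 had a run.

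*Lncpint*, a p53-induced long RNA, held 5 regions with pileups of 17, 9, 14, 16 and 14, and the nearest even peak to any of them was 231215 bp away. Runs of 12 bases were present in 2. *Trerf1*, whose name is that of a transcriptional regulator, held 4 regions with pileups of 11, 12, 27 and 23, and those at 11, 27 and 23 held runs of 13, 15 and 16 bases. *Dcdc5*, a member of the doublecortin family, held 3 regions with pileups of 29, 15 and 14, all with a run. *Nkx2-2os*, antisense to a homeobox gene, held 4 with pileups of 8, 15, 16 and 11, and 3 of them aligned to an odd probe without a run.
A run from each of 5 of these genes is shown with 20 bases on either side, as examples of probe letters in introns or exons of noncoding genes. Strands are those of the genome, and the letters need not be on the strand of the transcript.
*Rmst*, chr10:92111010-92111064, minus strand, probe 7: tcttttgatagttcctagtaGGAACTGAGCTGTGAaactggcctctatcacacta
*Trerf1*, chr17:47348703-47348758, probe 1: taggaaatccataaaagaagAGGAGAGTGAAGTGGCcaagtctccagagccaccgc
*Sox2ot*, chr3:34270558-34270610, probe 7: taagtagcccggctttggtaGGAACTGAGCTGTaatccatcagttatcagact
*Pvt1*, chr15:62209937-62209988, minus strand, probe 7: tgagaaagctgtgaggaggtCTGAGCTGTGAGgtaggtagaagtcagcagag
*Lncpint*, chr6:31134342-31134393, probe 7: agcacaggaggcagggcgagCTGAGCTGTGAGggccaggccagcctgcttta

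Several of the genes with most regions, which reach into the 3 densest clusters above, had few runs or alignments. *C230088H06Rik* (chr4:147018235-147492201) held 17 regions with pileups from 5 to 20 and a median of 7. Of these, 15 had neither a run nor an alignment, and an even peak lay a median of 1287 bp away. *Gm26624*, which overlaps it on the opposite strand, held 14 of the same regions, all with neither. The pseudogenes *Gm2619* with 7 regions and *Gm5373* with 6 also had neither in any region, with even peaks a median of 960 and 414.5 bp away. Outside these clusters, *Gm14005*, a lincRNA with 7 regions of pileup 7 to 13, held 2 with a run and 1 with an alignment only. *Pvt1*, described above, held as many regions as *Gm5373*, with 1 run and 3 alignments only.

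**Figure D5:**
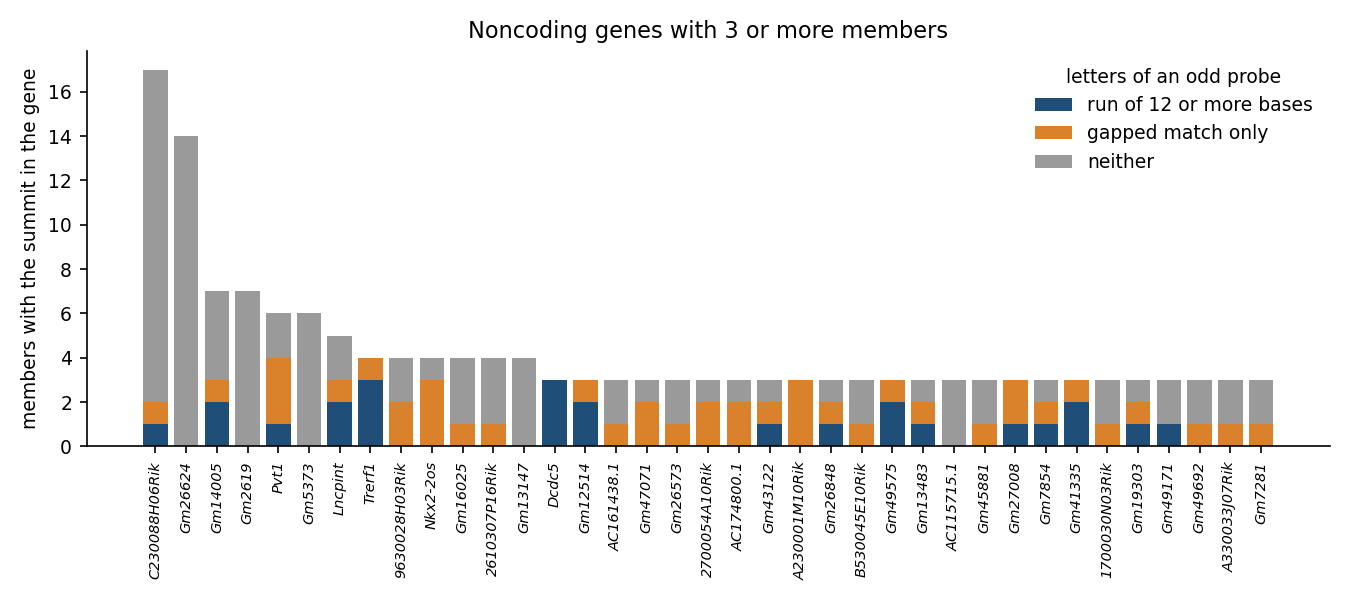
Number of regions whose summit lies in each noncoding gene with 3 or more of them, with overlapping genes sharing regions. Colours split the bars into regions with an odd-probe run of 12 or more bases, with a gapped match only and with neither, and *C230088H06Rik* stands highest with 17 regions, 15 of them with neither.

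The gene of the RNA itself held 1 of the regions, in an intron. The peak chr5:91269100-91269299 had a pileup of 9, was repeat-masked over its whole length, lay 88085 bp from *Btc* and had an even peak 4248 bp away. It had no run of 12 bases, and near its far end, outside the window around the summit, 15 letters, in capitals here, aligned with probe 1 and 14 of them matched.
Region in *Gm19619*, chr5:91269100-91269299: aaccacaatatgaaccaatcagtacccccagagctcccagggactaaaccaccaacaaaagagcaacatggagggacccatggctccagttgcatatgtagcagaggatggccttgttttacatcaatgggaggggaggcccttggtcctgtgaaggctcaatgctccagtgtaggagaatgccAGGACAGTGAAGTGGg

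Some regions were copies of each other. When the 121 bases around the summits were compared with blastn, 605 regions (12.4%) fell into 39 families of 5 or more members that aligned over at least 70 bp at 75% identity. Families held 5.35% of the regions with a run, 12.9% of those with an alignment only and 17.2% of those with neither. Of the 10 families with 20 or more regions, family 2 (numbered by size) had 42, of which 38 had an alignment only, with probe 1 as the best match in 41. Of its 179 copies in the genome, 91 (50.8%, 43.6 to 58.1%) lay in an odd peak and none in an even peak. Family 9, with 23 regions, had 193 copies, of which 87 (45.1%) lay in an odd peak and none in an even peak. Of those copies, 168 had a copy of family 2 within 500 bp, so copies of the 2 families mostly lay side by side. Family 4, with 40 regions, had 121 of 2871 copies (4.21%) in an odd peak, and family 5, with 36 regions, 86 of 1099 (7.83%). The regions of a family were chosen as odd peaks without an even overlap and can be among its copies. These shares are thus fixed in part by the choice and are a description, and no share without the regions was computed.

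Within these families, copies closer to the example region were covered more often, which the choice of example fixed in part. The example is itself a covered region, and the regions of its family were grouped by likeness to it. In family 5, the share was 2.82% at 75 to 80% identity and 22.1% at 90% or more. In family 2 it was 2 of 10 copies (5.67 to 51.0%) and 57.7% (46.2 to 68.5%). The other 6 families, which include the largest, had 69007 to 220871 copies each, of which 0.265 to 0.389% lay in an odd peak. No share for sequence at large is given beside these. Regions with neither a run nor an alignment were 76 of 82 in family 1, 32 of 41 in family 3 and 14 of 29 in family 6. In families 7, 8 and 10 they were 19 of 29, 29 of 29 and 19 of 21. An example is shown for each of the 4 families with higher shares, with the letters aligned to the best-matching probe, mismatches included, in capitals.
Family 2, probe 1, chr6:3104316-3104436, minus strand: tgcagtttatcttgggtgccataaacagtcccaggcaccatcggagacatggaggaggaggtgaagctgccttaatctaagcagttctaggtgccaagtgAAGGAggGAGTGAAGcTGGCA
Family 4, probe 1, chr6:112417964-112418084: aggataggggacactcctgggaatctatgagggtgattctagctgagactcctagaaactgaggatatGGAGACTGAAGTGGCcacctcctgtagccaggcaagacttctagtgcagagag
Family 5, probe 1, chr13:90682292-90682412, minus strand: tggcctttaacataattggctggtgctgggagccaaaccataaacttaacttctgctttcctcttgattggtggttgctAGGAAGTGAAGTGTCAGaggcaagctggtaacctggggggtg
Family 9, chr7:141768894-141769014, minus strand: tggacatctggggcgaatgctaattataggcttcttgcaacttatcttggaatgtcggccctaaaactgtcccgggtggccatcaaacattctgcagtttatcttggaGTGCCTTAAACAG
In family 9, the letters in capitals match probe 3 only with a score of 9. Within 300 bp of the summit, a wider window than the 100 bp used above, all 23 regions of family 9 had an alignment with a score of at least 13. Probe 1 was the best match in all 23.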

How the data were processed

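ChIRP-seq peak lists of 2 libraries were used, grouped by their labels into odd and even probes. Novoalign 4.02.02, SAMtools 1.9 and MACS2 are named in the submitters' processing notes, and the build is mm10 (GRCm38). Per the file headers, the authors ran MACS2 2.1.1.20160309 on each library separately. Local background was off, and no control library was used. The deposited signal is the unscaled pileup at the summit. The deposited fold enrichment is a ratio of that pileup plus 1 to a genome-wide background plus 1, and the deposited −log10 p-value and q-value also follow from it alone. The headings of the −log10 columns were damaged and were identified by the order of MACS2. In the even list, 1 start was restored from end and length.

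Distances and gene types came from GENCODE vM21, sequence from RefSeq GRCm38.p6. Probe letters were kept only as far as *Gm19619* contains them: 11 of 14 probes in full, and 18 of 19, 12 of 19 and 16 of 19 letters of probes 5, 10 and 12. Runs of at least 12 bases (both strands, wholly inside a peak), alignments (score of at least 13 within 100 bp of the summit) and windows every 40000 bp of far sequence were found with Biopython 1.88, pandas 2.3.3, numpy 2.4.6 and scipy 1.17.1 under Python 3.11.15. Families were found with blastn 2.17.0, and figures drawn in matplotlib 3.10.9. Tested on simulated data, 500 of 500 distances, 500 of 500 planted alignments and 100 of 100 runs were recovered, with 0 of 500 false alignments.

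The regions, gene list and measures were chosen with earlier results of these data known. Genes and regions named are noncoding genes with 3 or more regions, those of the 10 highest regions, genes with given names, a list of 25 known RNAs, the 10 highest and 10 farthest regions, those with a run of 15 bases or more, those at the thresholds, and the 10 widest gaps and the 5 with most regions. Examples of families, alignments and clusters were chosen after their values were seen. The alternatives varied the distance, pileup, overlap and length limits, the annotation and the scores, and their effect is given at the end.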

Additional observations from a re-analysis of the deposited data

How the results depend on the processing

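With 1 library per probe set, leaving out a replicate was not possible, and results cover counting error only. No paired analysis was possible because each probe set had 1 library. Of 78 alternatives, 47 left a share, median or density within its interval, or the number of regions within 1.5 times, and 31 moved the value. A distance of 50000 bp left 3163 regions, 3.76 per Mb, with 73.6% beyond 100000 bp. A distance of 5 kb gave 43.5%. A fold enrichment of at least 10 left 1206 regions, 1.03 per Mb, 44.1% with an odd-probe run and 14.1% in noncoding genes. The density and the share with a run were 3.703 per Mb and 25.3% for a pileup under 20, 4.33 and 29.3% without a limit, 3.72 and 29.3% for −log10 q of at least 5, and 3.52 and 30.6% for a pileup over 5 and length over 200 bp. With runs of 10 bases, 55.7% of regions held an odd and 3.18% an even run, and 1.71% of sites lay in a peak. With 14 bases these were 5.33%, 0 and 76.8%. Alignment scores of 12 and 14, chosen after seeing the data, gave 67.7% and 36.7%. The share in noncoding genes was 17.05% within 1000 bp and 13.3% for long noncoding types. In 200 bp around summits, the masked share was 17.9% and GC 44.3%. An even peak lay within 1000 bp of 0.983% and 50000 bp of 13.5%. Without the 3 densest clusters (28 regions, also chosen after seeing the data) an even peak lay within 10000 bp of 3.75%. An uncovered site is not shown to be unbound at this depth, and the part of duplicate removal was not tested.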
